A study of Homo sapiens with 14 samples.

Results

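OVCAR-3 and SKOV3, both human cell lines derived from ovarian carcinomas, were compared by RNA sequencing in their control state. The control state is growth for 72 h in 2.5 µM GSK-J5, the isomer used as the inactive control for GSK-J4, which blocks KDM6A and KDM6B, the enzymes that remove methyl groups from lysine 27 of histone H3. All groups of the study received a compound, and no untreated library was analysed here. The comparison took every GSK-J5 library of 72 h from these lines, 6 of the 22 libraries in the series, held in 4 of its 14 samples. Each line had 3 libraries: replicates 1 and 2 of a first library set and replicate 3 of a second. OVCAR-3 was grown in RPMI 1640, for which the second set gives 20% serum, and SKOV3 in McCoys medium, for which it gives 10%, so that line and medium cannot be told apart. For the first set the labels also mention stripped medium. RNA came from a Qiagen RNeasy mini kit in the first set and an RNeasy Plus kit with poly(A) enrichment in the second. The labels do not say whether the replicates came from separate cultures. The p-values therefore speak of the spread among these libraries alone, and that spread may be technical. CAOV3, the other line of the study, was grown in DMEM/F12 with the same compound for 72 h and is used only to place levels, as are the 2 OVCAR-3 libraries of 48 h and the GSK-J4 libraries of 72 h.

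Ovarian carcinoma is a group of diseases with different origins, and cell lines carry that variety. Epithelial cells are held together by cadherin, tight and desmosomal junctions and keep a programme of splicing regulators and GRHL and OVOL transcription factors. Cells in a mesenchymal state express vimentin, fibronectin and the repressors SNAI2, ZEB1, ZEB2 and TWIST, which bind E-box sequences in promoters of epithelial genes. OVCAR-3 is widely used as a model of high-grade serous carcinoma and is known for extra copies of CCNE1. SKOV3 is known for extra copies of ERBB2, for deletion of the CDKN2A locus and for a mutated ARID1A.

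The 6 libraries held between 24037007 and 32662356 counts. Levels are given as CPM, counts per 1000000 counts of a library after adjustment between libraries, and are compared between libraries, not between genes. Over the genes tested, log2 levels correlated between 0.9565 and 0.9909 (Pearson's r, across genes, a description) for libraries of the same line and between 0.7433 and 0.7624 for libraries of different lines. In both lines replicate 3 lay farther from replicates 1 and 2 (r = 0.9593 and 0.9603 in OVCAR-3, 0.9602 and 0.9565 in SKOV3) than these lay from each other (0.9909 and 0.9799). The lines differed in how many genes lost most of their level. Among 9247 coding genes of at least 10 CPM in SKOV3 replicates 1 and 2, 143 (1.55%) had at most 0.25 of that level in replicate 3, against 7 of 9392 (0.0745%) for OVCAR-3. ERBB2 itself was among the genes that differed, and KRT14 was measured at 82.7 and 97.3 CPM in the first set but at 0.0435 in the second. CDKN2A was at 0 counts in every SKOV3 library. The sets also differed in RNA kit, whose part in these values was not tested. The labels do not say whether both sets used the same stock of SKOV3 cells, so a mean and SE over the 3 SKOV3 libraries may span different stocks. Values without SKOV3 replicate 3 are given for many of the results it moves, but not for every list or gene. With the library set in the fit, leaving out either library of the second set leaves the difference between lines to the first set.

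The lines were checked against markers of the cell types they could hold. All 10 markers of ovarian carcinoma epithelium, among them EPCAM, KRT8, PAX8 and CLDN4, reached 1 CPM in both lines, but their summed level was 11321 to 12002 CPM in OVCAR-3 and 1095 to 2137 CPM in SKOV3. CAOV3 had 9723 to 10307. Of 10 leukocyte markers, 1 reached 1 CPM in OVCAR-3 and 0 in SKOV3, and CD3E, CD2, MS4A1, CD68 and TYROBP were at 0 counts in both. Of 10 endothelial markers, 3 and 2 did, with sums of at most 7.2 and 9.08 CPM. Fibroblast markers separated the lines: 2 of 10 reached 1 CPM in OVCAR-3 (sum 39.3 to 55.5), with DCN, COL3A1 and POSTN at 0 counts, and 7 of 10 did in SKOV3 (sum 534 to 660). Of 10 mesothelial markers, 4 reached 1 CPM in OVCAR-3 and 5 in SKOV3, with sums of 361 to 518 and 10.8 to 177 CPM. MSLN and WT1 averaged 266 and 167 CPM in OVCAR-3 against 14.9 and 1.04 in SKOV3. LRRN4 and KRT5 went the other way, at 1.59 and 0.409 against 4.21 and 90.4 on average. KRT5 was at 124, 145 and 2.09 CPM in the SKOV3 libraries, so that replicate 3 lay near that of OVCAR-3 (1.12). In bulk RNA, fewer cells of a type and less RNA per cell cannot be told apart.

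Most genes differed between the lines. Of 17903 genes tested, 10738 (60%) were called, with an adjusted p below 0.05 in edgeR's quasi-likelihood test with Benjamini-Hochberg adjustment over all genes tested. Of all genes tested, 30.5% were higher in OVCAR-3 and 29.5% lower. A change of at least 4-fold was called for 4368 genes (24.4%), 13.3% higher in OVCAR-3 and 11.1% lower. The median absolute log2 difference was 0.98, close to a 2-fold difference, while the median signed difference, OVCAR-3 minus SKOV3, was 0.04. The libraries of the lines did not overlap for 64.9% of the genes tested. Of 948 long intergenic RNAs tested, 42.7% passed 4-fold, against 22.9% of 14229 coding genes. The shares were 28.4% of 891 antisense genes and 17.5% of 806 processed pseudogenes. A gene that passed the filter on low counts through 1 line alone had to differ, and the classes were not matched for level. These shares are therefore not read as a property of the RNA class. Whether counting used the read strand is not stated, so an antisense gene cannot be told apart from its partner. Against this background a list of genes stands out only where its share of calls or its median is well away from these values.

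**Figure D1:**
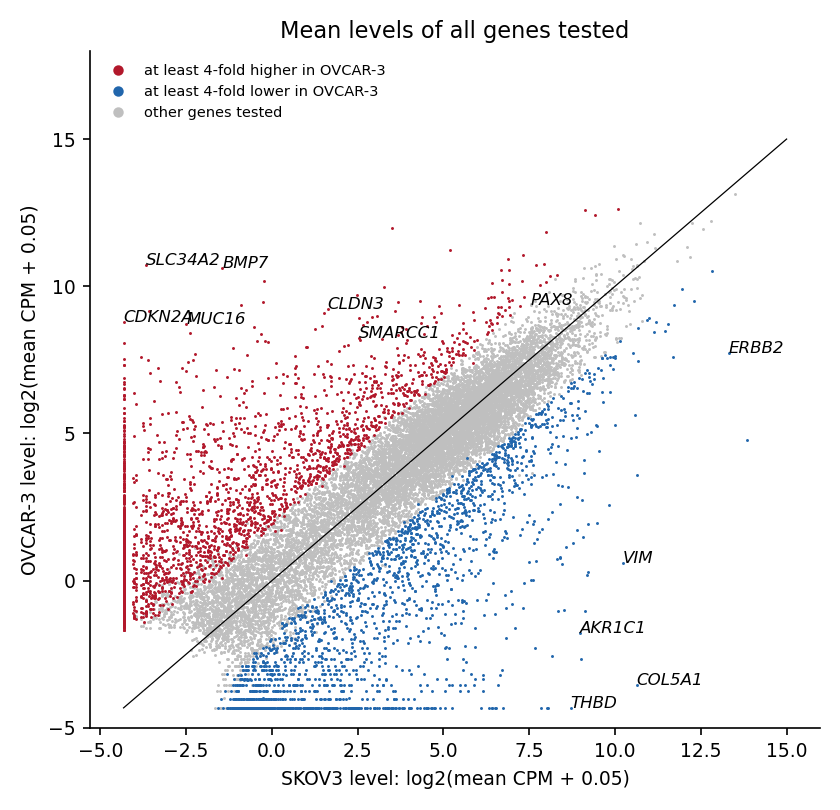
Mean level of every gene tested in SKOV3 (x axis) and OVCAR-3 (y axis), both as log2 of mean CPM plus 0.05, each over 3 libraries, with genes called at least 4-fold in colour and the line of equal levels. The 4368 coloured genes lie on both sides of the line, and the column and the row at the lower limits are genes with 0 counts in 1 line.

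For 879 genes every OVCAR-3 library held counts and every SKOV3 library held none, and for 498 genes the reverse was seen. Of these, 307 reached 1 CPM in OVCAR-3 and 185 in SKOV3. CDKN2A, the gene of the cell cycle inhibitor p16 and of ARF, was measured at 495, 411 and 427 CPM in OVCAR-3 and at 0 counts in all SKOV3 libraries, at least 13291-fold higher against a floor of 3 counts over the group. TMEM100, a membrane protein, was at 312, 319 and 172 CPM in OVCAR-3 (at least 8032-fold higher). These genes were absent from the counts of SKOV3 in both library sets. The transcription factor MEOX1 was at 218, 205 and 134 CPM (at least 5577-fold) and SOX11, a developmental transcription factor, at 180, 168 and 136 CPM (at least 4840-fold). KLK5, a secreted serine protease, was at 172, 163 and 150 CPM (at least 4830-fold). TMEM100 was also at 0 counts in CAOV3, whereas KLK5 stood at 322 ± 42.1 CPM (SD, n = 3) there.

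In the other direction, THBD, the endothelial and epithelial thrombin receptor thrombomodulin, was measured at 551, 467 and 237 CPM in SKOV3 and at 0 counts in OVCAR-3 (at least 11035-fold lower in OVCAR-3). The noncoding RNA LINC02582 was at 327, 286 and 180 CPM in SKOV3 (at least 6907-fold lower in OVCAR-3). NNMT, which methylates nicotinamide, was at 332, 301 and 139 CPM (at least 6809-fold lower). SKOV3 replicate 3 was the lowest of the 3 for each of these genes, and still far above OVCAR-3. CDH16, the kidney cadherin, was at 302, 346 and 41.2 CPM (at least 6287-fold lower in OVCAR-3). IGFN1, an immunoglobulin-domain protein of muscle, was at 82.3, 55.9 and 182 CPM (at least 2546-fold lower). NNMT was abundant in CAOV3 as well, at 572 CPM on average, while CDH16 had a mean of 0.0147 CPM there.

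The other genes named at the extremes share no single function. Higher in OVCAR-3 were SLC34A2, a phosphate transporter of lung and ovarian epithelium, at 1613, 1568 and 1857 CPM against 0, 0 and 0.087 (a count ratio of 75184, 95% counting interval 20813 to 620824), the urothelial tetraspanin UPK1B (at least 3500-fold), the lipid flippase subunit TMEM30B (at least 3066-fold), the endocytic adaptor EPN3 (at least 2722-fold) and MACC1, a regulator of MET (at least 2762-fold). The retrovirus-derived gene NYNRIN, the endocytic receptor LRP2 and the matrix protein VIT were also at 0 counts in SKOV3, with bounds from 2147-fold for VIT to 2362-fold for LRP2. Lower in OVCAR-3 were COL5A1, a fibrillar collagen chain, the phosphodiesterase PDE10A (at least 974-fold), the xylosyltransferase XYLT1 of proteoglycan synthesis (at least 784-fold), the WNT inhibitor relative APCDD1L (at least 2320-fold) with its divergent transcript APCDD1L-DT (at least 1984-fold), the noncoding RNA LINC02167 (at least 2331-fold) and the collagenase MMP13 (at least 2303-fold, with 123, 114 and 15.7 CPM in SKOV3). PDE10A was not a mark of SKOV3 alone: CAOV3 had 47.4 CPM on average, against 40.1, 37.1 and 37.3 in SKOV3.

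Epithelial genes were mostly higher in OVCAR-3. Of 39 junction and epithelial regulator genes tested, 35 were higher in OVCAR-3 and 1 lower, 30 of them at least 4-fold higher, and the median log2 difference was 4.31 against 0.04 for all genes. Without SKOV3 replicate 3 the counts were 35 and 4, so that all 39 were called. E-cadherin (CDH1, on GRCh38 chromosome 16 from 68737225 to 68835548), the adhesion molecule of adherens junctions, was measured at 287, 300 and 272 CPM in OVCAR-3 and at 7.09, 10.2 and 0.479 CPM in SKOV3. The libraries did not overlap, and SKOV3 replicate 3 was the lowest. The log2 difference was 5.93 ± 0.758 (SE, adjusted p = 0.000906), and 5.02 without SKOV3 replicate 3. The call was lost without replicate 1 or replicate 2 of both lines (adjusted p = 0.0558 and 0.0728). EPCAM, an adhesion molecule of epithelia, was at 374, 369 and 302 CPM against 16.2, 20.9 and 3.74 (log2 difference 4.92, adjusted p = 0.000229).

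Several regulators of the epithelial state were at or near 0 in SKOV3. GRHL2, a grainyhead transcription factor, was at 97.3, 98 and 124 CPM in OVCAR-3 and at 0 counts in SKOV3 (at least 3176-fold higher), and its relative GRHL3 was at 10.3, 9.69 and 22.5 CPM against 0 counts (at least 420-fold). ESRP1, which directs epithelial splicing, was at 263, 269 and 309 CPM against 0.559, 0.349 and 1.57 (log2 difference 8.55). The membrane proteases followed the same direction. ST14 (matriptase) was at 357, 336 and 324 CPM against 0.0698, 0.317 and 0.0435, and PRSS8 (prostasin) at 183, 172 and 189 CPM against 0, 0.0951 and 0. RAB25, a GTPase of epithelial recycling endosomes, was at 184, 175 and 225 CPM against 0, 0.0634 and 0, a count ratio of 8701 (95% counting interval 2408 to 71857). The desmosomal genes DSP and DSG2 were expressed in both lines, and their order turned between the library sets. DSP was at 370, 408 and 744 CPM in OVCAR-3 and 523, 501 and 401 in SKOV3, lower in OVCAR-3 in the first set and higher in the second (log2 difference 0.03, adjusted p = 0.934, set interaction 1.33 at adjusted p = 0.000239). DSG2 did the same, at 150, 160 and 210 CPM against 317, 292 and 178 (log2 difference -0.58, adjusted p = 0.0895, set interaction 1.25 at adjusted p = 0.000338). Both were called lower in OVCAR-3 without replicate 3 of either line. The tight junction scaffold TJP1 was the member called lower, at -0.43 (adjusted p = 0.0482), a call that was lost when any of 4 single libraries was left out (adjusted p = 0.144 to 0.161).

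**Figure D2:**
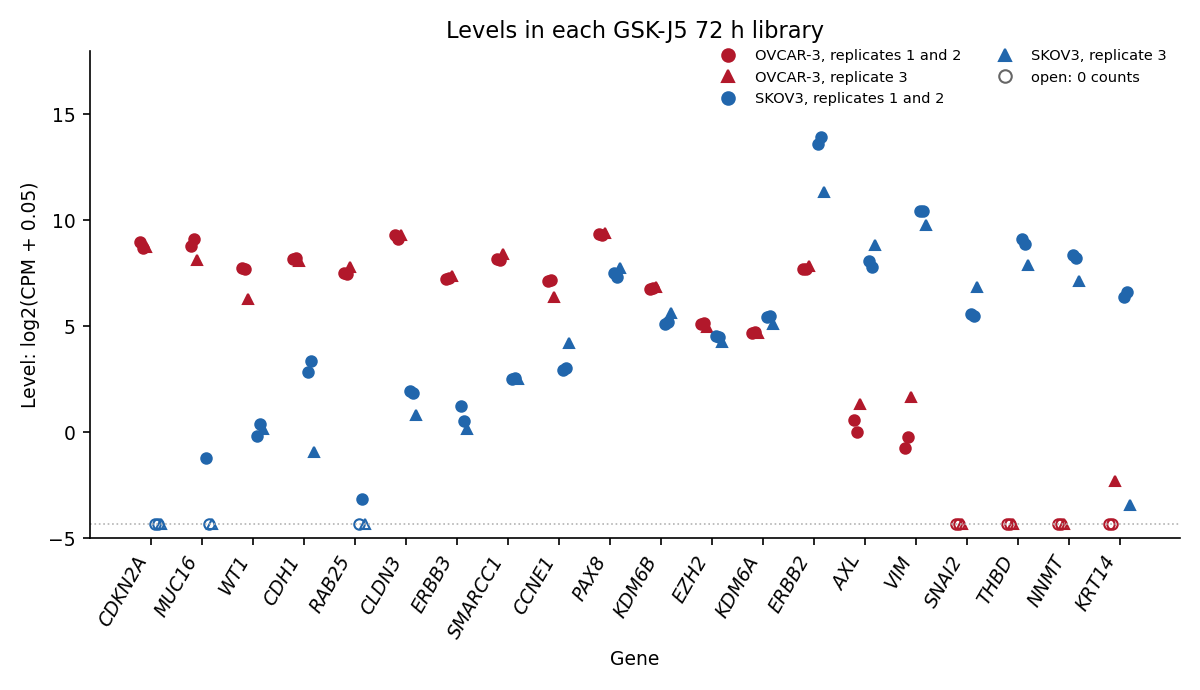
Level of 20 genes (x axis) in each of the 6 libraries, as log2 of CPM plus 0.05 (y axis); red is OVCAR-3, blue SKOV3, circles are replicates 1 and 2, triangles replicate 3, and open symbols at the dotted line are 0 counts. Of the lines plotted, CDKN2A, CDH1 and SMARCC1 sit higher in OVCAR-3, VIM and AXL higher in SKOV3, and the blue triangle falls below the blue circles for ERBB2, CDH1 and KRT14.

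The repressors SNAI2 and ZEB1, both higher in SKOV3, recognise the E-box CAGGTG, so promoters of epithelial genes are shown with its matches. The 250 bases before the start were searched for CAGGTG on both strands, which on the printed strand reads CAGGTG or CACCTG, with no overlap between matches. Of 27305 promoters of that length in the RefSeq table (GRCh38.p14), 17.5% held at least 1 match and 2.55% at least 2. Only 21 of the 40 listed epithelial genes were in that table, so a share over the list is void and is not given. CRB3, which builds the apical polarity complex, had the most matches of the 21, with 5, followed by AP1M2, a subunit of the epithelial sorting adaptor, with 3. RAB25 is shown as the epithelial gene in that table with the largest count ratio between the lines, with 1 match. A match is a description of the letters and not a measured site. In the printed sequences, 5′ to 3′ on the gene's strand, capitals mark the matches. The regions are chr19:6464021-6464270 (plus strand) for CRB3, chr19:10587313-10587562 (minus strand) for AP1M2 and chr1:156060910-156061159 (plus strand) for RAB25.
CRB3: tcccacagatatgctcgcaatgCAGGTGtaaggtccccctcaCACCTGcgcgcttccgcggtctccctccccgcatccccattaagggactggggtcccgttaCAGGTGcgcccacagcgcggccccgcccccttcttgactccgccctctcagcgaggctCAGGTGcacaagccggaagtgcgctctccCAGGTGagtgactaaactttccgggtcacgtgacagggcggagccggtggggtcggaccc
AP1M2: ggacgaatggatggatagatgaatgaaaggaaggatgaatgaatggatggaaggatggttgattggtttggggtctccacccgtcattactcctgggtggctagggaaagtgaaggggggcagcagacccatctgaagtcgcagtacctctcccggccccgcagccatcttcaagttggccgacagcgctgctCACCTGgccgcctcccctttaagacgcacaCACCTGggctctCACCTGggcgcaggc
RAB25: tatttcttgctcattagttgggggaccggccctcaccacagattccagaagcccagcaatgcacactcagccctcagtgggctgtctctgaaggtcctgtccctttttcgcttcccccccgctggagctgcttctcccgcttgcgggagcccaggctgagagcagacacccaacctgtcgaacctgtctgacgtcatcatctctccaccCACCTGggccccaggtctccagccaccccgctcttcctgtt
These genes were higher in OVCAR-3, but they came from a list mostly higher there, and RAB25 was chosen by its ratio. Their shared direction therefore carries no weight of its own. CRB3 was at 28.4, 29.7 and 29.1 CPM in OVCAR-3 and 3.98, 3.61 and 2.39 in SKOV3 (log2 difference 3.14, adjusted p = 6.65e-05). AP1M2 was at 152, 137 and 153 CPM against 0.0349, 0 and 0.305 (log2 difference 10.51, adjusted p = 2.65e-05). DSP and DSG2, whose order turned between the library sets, held 2 matches each.

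Mesenchymal genes formed the opposite list. Of 39 tested, 30 were lower in OVCAR-3 and 6 higher, 28 of them at least 4-fold lower, with a median log2 difference of -5.15. Without SKOV3 replicate 3 the counts were 31 and 7. Vimentin (VIM), the intermediate filament of mesenchymal cells, was at 0.535, 0.796 and 3.1 CPM in OVCAR-3 and at 1366, 1368 and 872 CPM in SKOV3. The log2 difference was -9.83 ± 0.706 (SE, adjusted p = 9.34e-05), and -11.06 without SKOV3 replicate 3. Fibronectin (FN1), a matrix glycoprotein, was at 15.5, 17.7 and 49.5 CPM against 11967, 12720 and 19580 (log2 difference -9.23). SKOV3 replicate 3 was the lowest SKOV3 library for VIM and the highest for FN1.

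The repressors of epithelial genes were among these members. SNAI2 was at 0 counts in OVCAR-3 and at 48.2, 44.2 and 114 CPM in SKOV3 (at least 1656-fold lower in OVCAR-3). ZEB1 was at 0.0356, 0.108 and 0 CPM against 81.3, 70.1 and 60.2 (log2 difference -10.39, adjusted p = 1.08e-05). ZEB2 and TWIST2 had log2 differences of -7.88 and -8.39, whereas SNAI1, at -0.96 (adjusted p = 0.0953), did not pass the test. PRRX1, a mesenchymal homeobox factor, was at 49.1 and 48.1 CPM in SKOV3 replicates 1 and 2 but at 2.44 in replicate 3, with 0 counts in OVCAR-3 (at least 914-fold lower). AXL, a receptor kinase linked to this state, was at 1.43, 0.94 and 2.42 CPM against 269, 223 and 449 (log2 difference -7.63, adjusted p = 6.25e-06). In CAOV3, AXL averaged 289 CPM, near SKOV3, and VIM 7.47 CPM. N-cadherin (CDH2) was at 7.45, 7.85 and 8.62 CPM against 135, 121 and 132 (log2 difference -4.02). A few members ran the other way: TCF4, a helix-loop-helix factor, was at 75.5, 85.4 and 76.2 CPM in OVCAR-3 and 7.54, 6.69 and 8.57 in SKOV3 (log2 difference 3.38). TNC, the matrix protein tenascin-C, had a log2 difference of 2.38 but was at 143, 132 and 236 CPM in OVCAR-3 and 18, 12.3 and 144 in SKOV3, so its libraries overlapped. Without SKOV3 replicate 1 its call was lost (adjusted p = 0.0699), and without SKOV3 replicate 3 the difference was 3.12.

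Matrix and adhesion genes followed in part. Of 26 collagen chains tested, 17 were lower in OVCAR-3 and 7 higher (median log2 difference -2.24). COL5A1, a fibrillar chain, was at 0.0713, 0.0362 and 0 CPM in OVCAR-3 against 1697, 1749 and 1317 in SKOV3, a count ratio of 41135 (95% counting interval 14075 to 199468). The basement membrane chains split: COL4A1 was lower in OVCAR-3 (log2 difference -2.37), while COL4A6 was higher at 10.1, 10.6 and 8.39 CPM against 0.105, 0.317 and 0 (log2 difference 6.05, and 7.26 without SKOV3 replicate 2). Of 19 integrin chains, 11 were lower and 3 higher in OVCAR-3. Of 11 laminin chains, 5 were lower, LAMB3 most among the named with -3.02, and 4 were higher. Without SKOV3 replicate 3, 15 integrin chains and 7 laminin chains were lower. ITGB3, the beta chain of the vitronectin receptor, was at 1.28, 0.325 and 0 CPM against 67.9, 50.1 and 33.2 (log2 difference -6.68, and -8.18 without OVCAR-3 replicate 1), and ITGB8, which activates latent TGF-beta, ran the other way at 351, 359 and 402 CPM against 18.5, 17.3 and 9.66 (log2 difference 4.65).

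Claudins and keratins, the other epithelial families, were mixed. Of 14 claudins, 8 were higher in OVCAR-3 and 3 lower. CLDN3, a tight junction claudin of ovarian carcinomas, was at 627, 548 and 623 CPM against 3.84, 3.58 and 1.7 (log2 difference 7.66, adjusted p = 1.4e-05), and CLDN6, a fetal claudin, at 196, 178 and 167 CPM against 0.244, 0 and 0.218 (log2 difference 10.24; 10.86 and 9.55 without SKOV3 replicates 1 and 2). CLDN1 was expressed in both lines, with a log2 difference of -0.57 whose call was lost without OVCAR-3 replicate 2 or SKOV3 replicate 1 (adjusted p = 0.0707 and 0.0904). Of 16 keratins, 7 were higher and 5 lower, and 8 and 7 without SKOV3 replicate 3. The simple-epithelium pair KRT8 and KRT18 was higher in OVCAR-3, KRT8 at 5896, 5521 and 5006 CPM against 728, 769 and 569, and KRT18 by 3.84 on the log2 scale. The basal keratin KRT14 was at 0, 0 and 0.149 CPM in OVCAR-3 against 82.7, 97.3 and 0.0435 in SKOV3, so that the libraries overlapped and the direction was not shared by the sets. Its log2 difference was -9.95, -14.36 without SKOV3 replicate 3, and between -8.80 and -8.88 without OVCAR-3 replicate 1 or 2. KRT19 had the same kind of spread in SKOV3, 656, 936 and 43.7 CPM, and did not pass the test (log2 difference 2.01, adjusted p = 0.141).

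**Figure D3:**
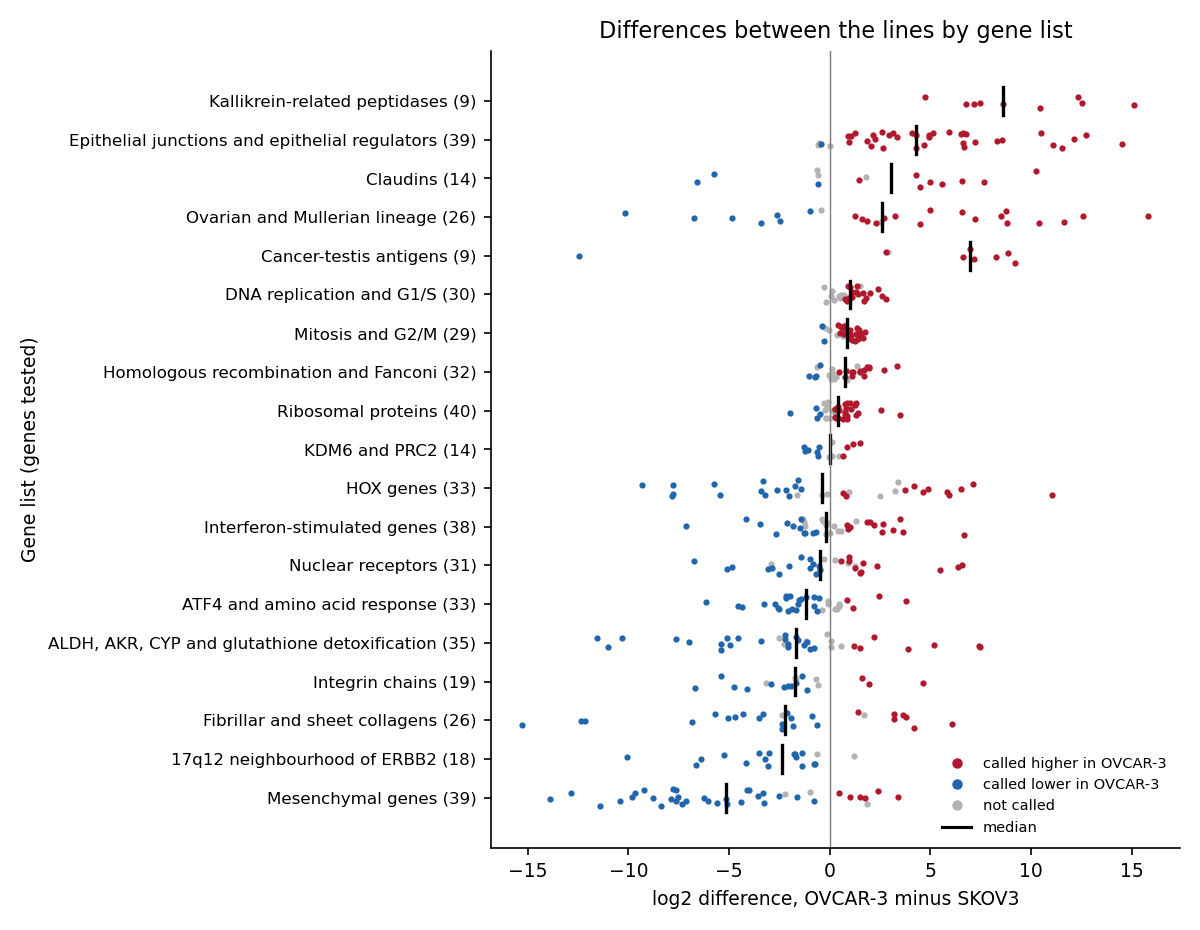
Log2 difference, OVCAR-3 minus SKOV3 (x axis), of each tested member of 19 gene lists (rows, number tested in brackets), red called higher and blue called lower in OVCAR-3, grey not called, with the median as a black bar. Fitted values beyond about 10 in size mostly belong to genes with hardly any counts in 1 line and depend on the prior count; the kallikrein and epithelial medians lie at 8.62 and 4.31 and the mesenchymal median at -5.15.

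Genes of the Mullerian lineage and clinical markers of serous carcinoma were largely higher in OVCAR-3. Of 26 tested, 17 were higher and 7 lower (median log2 difference 2.62). MUC16, the protein that carries the CA-125 antigen, was at 437, 549 and 282 CPM in OVCAR-3 and at 0.384, 0 and 0 in SKOV3 (log2 difference 11.66 ± 0.644 SE, adjusted p = 3.77e-05; 16.43 without SKOV3 replicate 1, which held all its SKOV3 counts, and 10.90 without SKOV3 replicate 2). WT1, a transcription factor used to diagnose serous carcinoma, was at 214, 209 and 78.7 CPM against 0.838, 1.24 and 1.04 (log2 difference 7.24, adjusted p = 2.19e-05). PAX8, the Mullerian lineage factor, was expressed in both lines, at 660, 638 and 673 CPM against 182, 161 and 217, a 3.54-fold difference (log2 1.83 ± 0.113 SE, adjusted p = 5.43e-05). WFDC2, which encodes the serum marker HE4, was at 345, 324 and 325 CPM against 1.26, 0.824 and 0.174 (log2 difference 8.79). The granulosa factor FOXL2 was at 29.3, 24.7 and 30.6 CPM in OVCAR-3 and at 0 counts in SKOV3 (at least 841-fold).

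SKOV3 had its own members of that list. Oestrogen receptor alpha (ESR1) was at 0.82, 0.904 and 0.336 CPM against 95.5, 116 and 22.4 (log2 difference -6.74). CAOV3 resembled neither line throughout: its MUC16 was 10.5 CPM and its WT1 0.0441 CPM on average, both below OVCAR-3. Over 31 nuclear receptors tested, 11 were higher in OVCAR-3 and 14 lower, among the latter PPARG, the adipogenic receptor, at -5.09.

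Kallikreins, secreted proteases encoded side by side on chromosome 19, went one way. Of 15 genes, 9 passed the filter on low counts, and those 9 were called higher in OVCAR-3; a member that passed through OVCAR-3 alone had to differ, so that count carries no weight of its own. KLK7, the partner of KLK5 in skin, was at 30.5, 31.9 and 14.4 CPM in OVCAR-3 and 0 counts in SKOV3 (at least 769-fold). The other 6, KLK2, KLK3, KLK4, KLK9, KLK12 and KLK15, had at most 0.0722 CPM on average in either line.

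At the ERBB2 locus, SKOV3 was far above OVCAR-3, and the size of the gap depended on the library set. ERBB2, the receptor kinase HER2 (GRCh38 chromosome 17, 39687914 to 39730426), was at 211, 205 and 227 CPM in OVCAR-3 and at 12396, 15473 and 2612 CPM in SKOV3. No library overlapped, but SKOV3 replicate 3 had 0.187 of the mean of replicates 1 and 2. The log2 difference was -5.27 ± 0.6 (SE, adjusted p = 0.000564), a 38.5-fold difference, and -6.12 without SKOV3 replicate 3. The line effect differed between the sets (edgeR interaction test, log2 2.58, adjusted p = 2.17e-05, 20.3% of 19660 genes called). The same split was measured in the SKOV3 libraries with GSK-J4, at 12027, 13404 and 2553 CPM. CAOV3 had 161, 149 and 169 CPM, near OVCAR-3.

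The neighbours of ERBB2 moved with it to different degrees. Of 18 tested genes listed for 17q12, 16 were lower in OVCAR-3 and 0 higher, 9 at least 4-fold, with a median log2 difference of -2.38. Close to ERBB2, PPP1R1B (DARPP-32, a phosphatase inhibitor) was at 0.499, 0.181 and 0.634 CPM against 750, 798 and 140 (log2 difference -10.06, -11.19 without SKOV3 replicate 3 and -9.36 without OVCAR-3 replicate 2). MIEN1, the gene next to ERBB2 and linked to migration, was at 13.3, 12 and 11 CPM against 2108, 2400 and 294 (log2 difference -6.62, and -7.54 without SKOV3 replicate 3). STARD3, a cholesterol transporter, was at 31.7, 28.5 and 33.7 CPM against 655, 734 and 357 (log2 difference -4.16). In SKOV3 replicate 3, PPP1R1B, MIEN1 and GRB7 had 0.181, 0.13 and 0.137 of the first set, STARD3 0.514 and PGAP3 0.734. GRB7, an adaptor that binds HER2, changed direction: 34.6, 31.8 and 32.6 CPM in OVCAR-3 against 81.2, 109 and 13 in SKOV3 (log2 difference -0.65, adjusted p = 0.374, with a difference between sets at adjusted p = 7.96e-05).

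Genes farther out in the same region varied in whether they shared the split between sets. The Mediator subunit MED1 was at 52.6, 58.1 and 71.1 CPM against 193, 187 and 199 (log2 difference -1.68), and the kinase gene CDK12 at 62.4, 66.8 and 64.4 CPM against 170, 156 and 177 (log2 difference -1.37). Both had SKOV3 replicate 3 at the level of the first set, with ratios of 1.05 and 1.09. On the other side of ERBB2, thyroid hormone receptor alpha (THRA) was at 20.3, 20.2 and 15.8 CPM against 170, 175 and 129 (log2 difference -3.07), and the clock repressor NR1D1 at 4.46, 4.56 and 6.57 CPM against 53.4, 50 and 70.5 (log2 difference -3.49). The set interaction was not called for these 4 genes. Other genes farther out did have less in SKOV3 replicate 3 with a called interaction, among them LASP1, an actin-binding protein (ratio 0.716, adjusted p = 0.0119), the F-box gene FBXL20 (0.655, adjusted p = 0.0147), ORMDL3, a regulator of sphingolipid synthesis (0.749, adjusted p = 0.0201), and RAPGEFL1 (0.534, adjusted p = 0.00769). DNA copy number was not measured in these libraries.

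**Figure D4:**
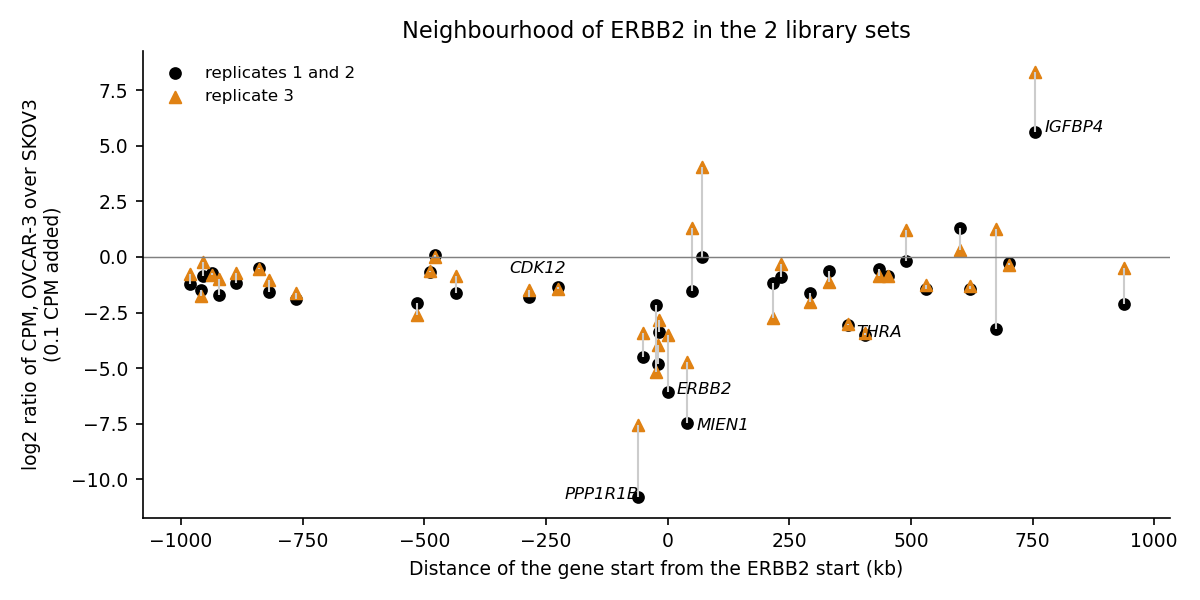
Log2 ratio of CPM, OVCAR-3 over SKOV3 with 0.1 CPM added (y axis), of tested coding genes within 1000 kb of ERBB2, by the distance of their start from the ERBB2 start in kb (x axis), from replicates 1 and 2 (black circles) and replicate 3 (orange triangles). ERBB2 moved from -6.06 to -3.52 and MIEN1 from -7.47 to -4.73, while CDK12 stayed at -1.33 and -1.45.

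The other ERBB genes differed in both directions. ERBB3, the partner of HER2 without strong kinase activity, was at 152, 155 and 167 CPM in OVCAR-3 and 2.27, 1.4 and 1.04 in SKOV3 (log2 difference 6.66, adjusted p = 1.59e-05). CAOV3 had 123 CPM on average. The ligand EREG was at 0, 0.0723 and 0 CPM in OVCAR-3 against 9.7, 6.02 and 4.18 in SKOV3 (count ratio 260, 95% counting interval 71.5 to 2149), and EPGN ran the other way at 1.82, 1.16 and 11.2 against 0.105, 0.0951 and 0.0435 CPM (log2 difference 5.10, 5.69 without SKOV3 replicate 1 and 3.78 without SKOV3 replicate 3). Of 15 receptors and ligands tested, 7 were higher in OVCAR-3 and 5 lower, and 7 were lower without SKOV3 replicate 3.

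At 19q12, OVCAR-3 was the higher line. CCNE1, which encodes cyclin E1, the activator of CDK2 (chromosome 19, 29811898 to 29824308), was at 141, 144 and 84.4 CPM in OVCAR-3 and 7.47, 8.12 and 18.3 in SKOV3. The libraries did not overlap, and the second set was closer together: the log2 difference was 3.54 ± 0.431 (SE, adjusted p = 0.000742), and 4.13 without SKOV3 replicate 3. Its neighbours POP4, a subunit of RNase P, at 283, 258 and 289 CPM against 39.5, 39.6 and 38.7 (log2 difference 2.82), C19orf12 (2.81) and the chaperone-like URI1 (2.07) were higher as well, without a called difference between the sets. Of 11 tested genes of the region, 9 were higher in OVCAR-3. UQCRFS1, a respiratory chain subunit farther out on the side of POP4, was lower at 62.3, 64.4 and 60.7 CPM against 118, 106 and 129 (log2 difference -0.91), and TSHZ3, a zinc finger homeobox gene, was lower at -4.93 (-7.15 without OVCAR-3 replicate 2, -4.30 without SKOV3 replicate 3).

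At 9p21, counts were missing from SKOV3 around CDKN2A. CDKN2B, which encodes the related inhibitor p15, was at 30.2, 28.5 and 54.1 CPM in OVCAR-3 and 0 counts in SKOV3 (at least 1118-fold), and the antisense RNA CDKN2B-AS1 was at 2.57, 2.24 and 3.39 CPM against 0 counts (at least 81.5-fold). MTAP, a methionine salvage enzyme encoded beside CDKN2A and often deleted with it, was expressed in SKOV3 at 28.1, 30.7 and 35.7 CPM, against 52.2, 50.9 and 45.2 in OVCAR-3 (log2 difference 0.65, adjusted p = 0.00768). Of 11 tested genes there, 8 were higher in OVCAR-3 and 0 lower, against 30.5% and 29.5% of all genes tested. Members at 0 counts in SKOV3, such as CDKN2A and CDKN2B, passed the filter on low counts through OVCAR-3 alone and had to differ. The count of 8 therefore carries no weight of its own.

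Of 23 G1 cyclins, CDKs and CDK inhibitors, 12 were higher in OVCAR-3 and 6 lower, and 16 were higher without SKOV3 replicate 3. CDKN1A, which encodes the inhibitor p21, was lower in OVCAR-3 at 12.3, 11.7 and 13.5 CPM against 44.9, 48.5 and 111 (log2 difference -2.32, adjusted p = 0.000401). PMAIP1, the gene of the death protein NOXA, was lower too (-3.74).

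Proliferation genes were modestly higher in OVCAR-3. Of 29 mitosis genes, 22 were higher and 2 lower, none past 4-fold, with a median log2 difference of 0.88. Of 30 replication genes, 18 were higher and 0 lower (median 1.01), and 27 were higher without SKOV3 replicate 3. The helicase subunit MCM7 was at 351, 324 and 258 CPM against 42.1, 35.3 and 88.3 (log2 difference 2.61, adjusted p = 0.000995). RRM2, a subunit of ribonucleotide reductase, was at 270, 271 and 134 CPM against 25.7, 16.5 and 72.5 (log2 difference 2.80, and 3.63 without SKOV3 replicate 3; the call was lost without SKOV3 replicate 1, adjusted p = 0.0697). For both genes the lines lay closer together in the second set. The spindle motor KIF11 was higher (1.76). PLK1 and TOP2A, also mitotic, were the 2 called lower, at -0.39 and -0.28, and each lost its call when single libraries were left out, PLK1 for 3 of the 6 and TOP2A for 4 (adjusted p = 0.0614 to 0.18).

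Homologous recombination and Fanconi genes were higher for 15 of 32 and lower for 4, and 22 were higher without SKOV3 replicate 3. XRCC2, a recombination gene, was at 20.9, 17 and 19.9 CPM against 1.82, 0.951 and 3.39 (log2 difference 3.35), and the checkpoint kinase CHEK2 at 32.1, 32.8 and 22.6 CPM against 4.29, 3.42 and 5.7 (log2 difference 2.71). ATM, the kinase that senses double-strand breaks, ran the other way at -0.73.

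The targets of GSK-J4 were expressed in both lines. KDM6A, on the X chromosome, was at 25.6, 26.7 and 25.8 CPM in OVCAR-3 and 43.5, 44 and 34.6 in SKOV3 (log2 difference -0.64 ± 0.126 SE, adjusted p = 0.00558). KDM6B was at 109, 113 and 116 CPM against 34.3, 36.1 and 48.4 (log2 difference 1.53 ± 0.123 SE, adjusted p = 0.000143). The demethylase genes thus differed in opposite directions, and neither overlapped between the lines. EZH2, the methyltransferase that writes the mark they remove, was at 33.9, 35.8 and 31 CPM against 22.9, 22.2 and 19 (log2 difference 0.66, adjusted p = 0.00401), and its relative EZH1 was lower in OVCAR-3 (-1.25). LCOR, a cofactor that shares its locus with a PRC2 accessory protein, was higher (1.16), and PHF1, a PRC2 accessory protein, lower (-1.26). Of 14 KDM6 and PRC2 genes tested, 4 were higher, 6 lower and none past 4-fold.

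SWI/SNF genes were mostly close, with 1 exception. SMARCC1, a core scaffold of the remodelling complex, was at 288, 281 and 344 CPM in OVCAR-3 and at 5.69, 5.8 and 5.66 in SKOV3, a 52.9-fold difference (log2 5.73 ± 0.127 SE, adjusted p = 5.23e-06), with 131 CPM on average in CAOV3. Of 23 subunits tested, 9 were higher in OVCAR-3 and 7 lower. ARID1A was at 165, 169 and 139 CPM against 116, 116 and 104 (log2 difference 0.49, adjusted p = 0.00434), and SMARCA4, the ATPase, at 182, 171 and 175 CPM against 321, 319 and 394 (log2 difference -0.96). SMARCE1 was lower in OVCAR-3 at -1.64 (-2.23 without SKOV3 replicate 3), a call lost without OVCAR-3 replicate 1 or 2 (adjusted p = 0.0593 and 0.0613).

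HOX genes, which encode positional identity, split by cluster. Of 11 HOXA genes tested, 8 were higher in OVCAR-3 and 1 lower (median log2 difference 4.19), and of 9 HOXB genes, 1 was higher and 8 lower (median -2.16). HOXA5 was at 83, 82.1 and 89.3 CPM in OVCAR-3 and 4.99, 4.41 and 4.53 in SKOV3 (log2 difference 4.19, adjusted p = 8.3e-06), and HOXA4 at 10.9, 9.94 and 7.39 CPM against 0 counts (at least 282-fold). HOXA13, at the far end of that cluster, went against it with 0.107, 0.145 and 0 CPM against 22.3, 23.8 and 10.5 (log2 difference -7.78). HOXB8 was at 0.428, 0.0362 and 1.12 CPM against 159, 161 and 61.2 (log2 difference -7.82, -9.46 without SKOV3 replicate 3, -7.09 without OVCAR-3 replicate 2), and HOXB5 at 0.107, 0.0362 and 0 against 36.4, 40.7 and 23.6 (-9.33, and -10.45 without OVCAR-3 replicate 1). HOXB13 was the HOXB gene called higher, at 0.64. Among 6 HOXC genes, 2 were higher and 2 lower, with HOXC4 at a count ratio of 108 (95% counting interval 36.6 to 526). Of 7 HOXD genes, 4 were lower and 0 higher, among them HOXD9, at 0.463, 0.579 and 0.522 CPM against 27.4, 27.1 and 31.7 (log2 difference -5.77).

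**Figure D5:**
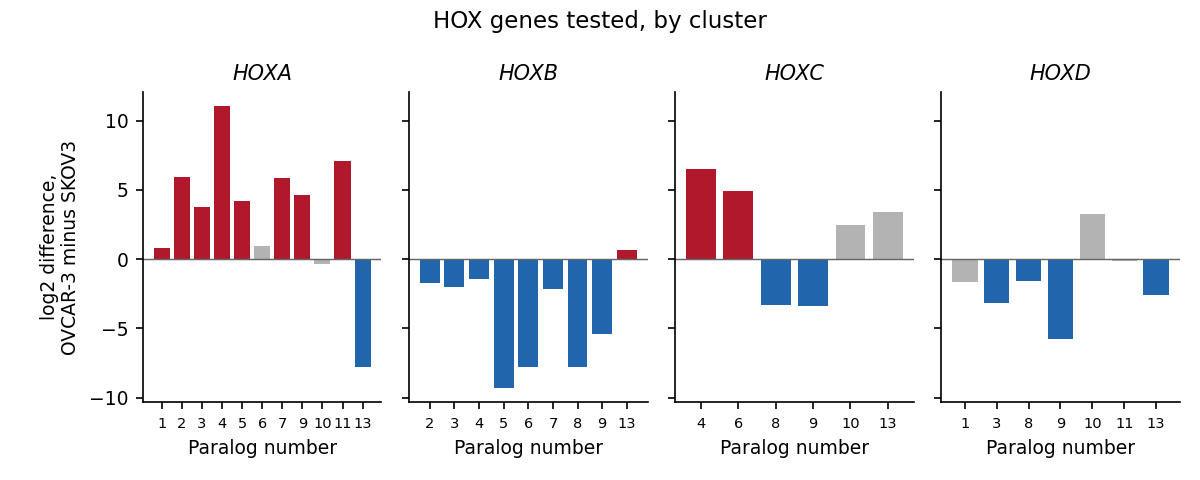
Log2 difference, OVCAR-3 minus SKOV3 (y axis), of the HOX genes tested, by paralog number (x axis) in the clusters HOXA to HOXD; red called higher, blue called lower in OVCAR-3, grey not called. HOXA genes other than HOXA10 and HOXA13 lie above 0 and HOXB genes other than HOXB13 below it; bars of genes at 0 counts in 1 line, such as HOXA4, depend on the prior count.

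Neighbouring genes that moved together were sought in 11836 windows of 15 coding genes in order along a chromosome, as a description. Besides HOXA, the window with the next highest median was a histone cluster on chromosome 6 (24704861 to 26285638; median 3.69, 10 higher and 3 lower in OVCAR-3). In that window H1-2, a linker histone, averaged 203 CPM in OVCAR-3 and 12.6 in SKOV3. On chromosome 19, from 39385852 to 39981441, all 15 genes were higher (median 3.47), among them PAF1, a transcription elongation factor, at 797 and 83 CPM on average, and FBL, the nucleolar fibrillarin, at 1193 and 104. Ribosomal protein gene RPS16 lies there, at 6210, 5607 and 6897 CPM against 537, 529 and 616 (log2 difference 3.47, adjusted p = 7.4e-06). On chromosome 11, from 76860867 to 78418348, all 15 were again higher (median 3.35), including the kinase PAK1, at 433 and 47.4 CPM on average, and the chromatin remodelling factor RSF1, at 614 and 73.8. In CAOV3, PAK1 averaged 59.4 CPM and RSF1 85.2, near SKOV3. A further window on chromosome 19, from 53519527 to 54473264, held 14 higher genes and none lower (median 3.06).

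The lowest windows in OVCAR-3 were the clustered protocadherins, 17q12 and a zinc finger cluster. On chromosome 5, from 141172619 to 141512979, all 15 genes were lower (median -4.77). Counted over the clusters, 14 of 15 PCDHB genes tested, 18 of 20 PCDHG genes and 9 of 11 PCDHA genes were lower in OVCAR-3. Of all genes tested, 29.5% were lower. This grouping was made after these values were seen. A member that passed the filter on low counts through SKOV3 alone had to differ, so these counts carry no weight of their own. Protocadherins are adhesion proteins that give neurons cell-surface identity. The PCDHA and PCDHG genes share exons, so their counts may not be independent. PCDHGA10 averaged 44.4 CPM in SKOV3, 0.0362 in OVCAR-3 and 3.74 in CAOV3. On chromosome 19, from 52336245 to 53133077, all 15 zinc finger genes were lower (median -2.49), such as ZNF880, at 0.841 CPM on average against 26.8. By chromosome, 53.1% of the 326 genes tested on chromosome 13 were lower in OVCAR-3 (median -0.74) and 46.3% of the 842 on chromosome 7 higher (median 0.61), against 29.5% and 30.5% of all genes.

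Detoxification genes were higher in SKOV3. Of 35 aldehyde dehydrogenase, aldo-keto reductase, cytochrome and glutathione genes, 21 were lower in OVCAR-3 and 7 higher (median log2 difference -1.69). AKR1C1, a reductase of steroids and carbonyls, was at 0.356, 0.362 and 0 CPM against 430, 491 and 579 (log2 difference -10.99, and -10.37 without SKOV3 replicate 3), and AKR1C3 at 1.53, 2.03 and 1.53 against 318, 357 and 333 (-7.63). AKR1C genes are close copies, so counts may be split between them. NQO1, a quinone reductase, was at 84.6, 85.1 and 83.7 CPM against 777, 745 and 1259 (-3.41). UGT1A6, a glucuronosyltransferase, was at 0 counts in OVCAR-3 (at least 375-fold lower). ALDH1A1, a retinaldehyde dehydrogenase, ran the other way at 103, 110 and 22.6 CPM against 16.5, 18.3 and 9.05 (log2 difference 2.20), as did the secreted peroxidase GPX3 (5.18). Of 19 ABC transporters, 7 were lower and 3 higher. With 52.6% of them called, against 60% of all genes tested, their share of calls did not exceed the background, while their median log2 difference was -1.26. ABCC3, an exporter of conjugates, was lower in OVCAR-3 at -6.56 (-7.21 without SKOV3 replicate 3).

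Amino acid response genes were likewise lower in OVCAR-3: 21 of 33 lower and 4 higher, median -1.17. SLC7A11, the cystine transporter, was at 19.4, 20.7 and 73.1 CPM against 807, 717 and 614 (log2 difference -4.54, and -5.31 without SKOV3 replicate 3). NUPR1, a stress-induced chromatin protein, was at 0.998, 1.66 and 9.33 against 202, 214 and 185 (-6.16, and -7.35). OVCAR-3 replicate 3 was the highest OVCAR-3 library for both genes and for STC2, a secreted glycoprotein higher in OVCAR-3 at 70.9, 66.5 and 218 CPM against 6.88, 9.86 and 4.74 (log2 difference 3.80, and 2.97 without SKOV3 replicate 3). For 28 of these 33 genes the line effect differed between the library sets, against 20.3% of all genes. Cholesterol genes were higher for 12 of 26 and lower for 2, but higher for 21 without SKOV3 replicate 3. TM7SF2, a sterol reductase, was at 343, 320 and 320 CPM against 15, 18.9 and 4.05 (log2 difference 4.89, and 4.23 without SKOV3 replicate 3).

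Signalling ligands marked each line. Of 27 TGF-beta and BMP genes, 15 were lower and 5 higher in OVCAR-3. BMP7 was at 1992, 1925 and 845 CPM in OVCAR-3 and 0.559, 0.349 and 0.0435 in SKOV3 (log2 difference 12.29, adjusted p = 5.23e-06), and the activin antagonist FST at 123, 107 and 55.5 against 0.0698, 0.0951 and 0.609 (8.60, and 10.30 without SKOV3 replicate 3). SKOV3 had BMP2 at 16.4, 11.7 and 20.9 CPM against 0 counts (at least 405-fold lower in OVCAR-3), and INHBA, an activin subunit, at 30, 21 and 56.4 against 0.0713, 0.0362 and 0 (count ratio 865, 95% counting interval 296 to 4197). Of 40 WNT genes, 12 were higher and 14 lower, and 17 and 16 without SKOV3 replicate 3. With 65% called, against 60% of all genes tested, and a median log2 difference of 0.19, these counts lay near the background. The stem cell receptor LGR5 was higher at 23.2, 25.2 and 15.4 CPM against 0.14, 0.0634 and 0 (8.18, and 8.97 without SKOV3 replicate 1), and WNT7A lower at 0.499, 0.506 and 2.05 against 53.8, 64.3 and 7.75 (-5.12, -6.92 without SKOV3 replicate 3, and -4.33 and -4.32 without OVCAR-3 replicates 1 and 2).

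Immune genes were called in both directions. Of 38 interferon-stimulated genes, 12 were higher and 12 lower in OVCAR-3, and 20 lower without SKOV3 replicate 3. With all 6 libraries 63.2% of them were called, near the 60% of all genes tested (30.5% higher and 29.5% lower). BST2 (tetherin) was at 3.78, 3.11 and 4.7 CPM against 83, 103 and 37.7 (log2 difference -4.18, and -4.81 without SKOV3 replicate 3), and OAS1, an RNA sensor, was higher at 15, 17.2 and 22.6 against 1.19, 2.38 and 0.783 (3.66). Of 22 antigen presentation genes, 12 were lower and 8 higher. The class I light chain B2M and the peptide transporter TAP1 were lower in OVCAR-3, at -1.96 and -2.55 on the log2 scale. The class II chaperone CD74 was at 65.3, 61.3 and 123 CPM against 0.349, 0.507 and 0.696 (7.28), and the class II gene HLA-DRA at 1.64, 1.23 and 5.37 against 0 counts (at least 81.1-fold). CSF1, the macrophage growth factor, was lower in OVCAR-3 at 1.96, 1.48 and 2.28 CPM against 92.9, 94 and 79.8 (-5.54). Of 39 cancer-testis genes, 9 passed the filter on low counts, of which 7 were called higher and 1 lower in OVCAR-3. A member that passed through 1 line alone had to differ, so these counts carry no weight of their own. The member called lower was SPANXB1, one of several near-identical copies and therefore uncertain. It was at 0 counts in OVCAR-3 and 11.7, 8.88 and 58.4 CPM in SKOV3 (at least 600-fold lower).

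Housekeeping lists had small median log2 differences. Of 40 ribosomal protein genes, 24 were higher and 4 lower, against 30.5% and 29.5% of all genes tested, so this list leaned towards OVCAR-3. Its median was 0.40, and 2 genes were past 4-fold. They were RPS16, of the window on chromosome 19, and RPS3, on chromosome 11. RPS3 was at 6127, 5750 and 7072 CPM against 1008, 1034 and 1252 (log2 difference 2.53). RPS23 was lower at 22.1, 26.3 and 34.1 CPM against 108, 98 and 113 (-1.97). Of 32 nuclear genes of oxidative phosphorylation, 13 were higher and 5 lower, none past 4-fold. Of 29 glycolysis and hypoxia genes, 13 were higher and 10 lower, and 12 and 14 without SKOV3 replicate 3. The phosphofructokinase genes exchanged places: PFKM, the muscle isoform, was at 127, 124 and 109 CPM in OVCAR-3 against 12.5, 12.3 and 12.5 (3.27), and PFKP, the platelet isoform, at 45.9, 43.6 and 59.9 against 425, 421 and 580 (-3.25). Of 16 BCL2 family genes, 6 were higher, BID most at 2.78, and 5 lower, BCL2 itself at -2.97.

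The same comparison in the libraries with GSK-J4, which share no sample with the GSK-J5 comparison but hold the effect of that inhibitor too, called 8732 of 17363 genes (50.3%), 24.9% higher in OVCAR-3 and 25.4% lower. Called in the same direction in both were 6741 genes, 62.8% of the GSK-J5 calls and 77.2% of the GSK-J4 calls, and 59 genes were called in opposite directions. Of the 4368 genes past 4-fold with GSK-J5, 3220 (73.7%) were called the same way with GSK-J4 and 2 the opposite way. ERBB2 differed by -7.49 there and CCNE1 by 2.51 and VIM by -9.85. ERBB2 in OVCAR-3 was at 32.1, 23.8 and 185 CPM with GSK-J4, so the first set had less of it than with GSK-J5. The third of these libraries was assigned by elimination, because its column name shortens the time and replicate number, and the GSK-J4 comparison called 12844 genes without it (6214 higher in OVCAR-3 and 6630 lower). In the OVCAR-3 libraries of 48 h with GSK-J5, ERBB2 was at 193 and 206 CPM, CCNE1 at 146 and 145 and CDH1 at 287 and 300, near the first set of 72 h.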

How the data were processed

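The authors deposited raw counts per gene, whole numbers without normalization, in a table per cell line, joined here on 58825 Ensembl identifiers. STAR, DESeq2 and GRCh38 (hg38) appear, with no role, in the submitters' processing notes. No counting tool, strand setting or annotation release was given in the sources used here. Another 5 columns of these tables were not used. The gene lists, the genes always named and the comparison were chosen with earlier results of these data known. In R 4.3.3, edgeR 4.0.16 (filterByExpr with a minimum count of 10, TMM, glmQLFit robust, glmQLFTest) fitted library set and line to the 6 libraries, with Benjamini-Hochberg adjustment over all genes tested. Log2 differences use a prior count of 0.125, and the SE is the log2 difference over the square root of F. Against 0 counts, a fold is a bound set by a floor of 3 counts over the group, and against 1 to 3 counts a ratio with a 95% counting interval; both cover counting error only. Lists were described by counts and medians.

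Named genes were the 13 always reported, the 15 highest and 15 lowest called genes without overlap and with mean log2 CPM 3 or above, the 2 largest called changes per list and direction with mean log2 CPM 0 or above, and the 5 highest genes seen in 1 line only. Other list members are given with their lists and were chosen after their values were seen, as were genes of the windows. For 58472 identifiers a gene name table gave the symbol and for 345 GENCODE 29 did; coordinates came from GENCODE 29 on GRCh38. Alternatives used limma 3.58.1 (voom) and DESeq2 1.42.0. The fit was tested on simulated data. A few genes that the rule names are not reported here. A few genes that most cells express held few counts (ALDOA 3.32 and 3.48 CPM); how reads over several genes were counted is not stated.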

Additional observations from a re-analysis of the deposited data

Results flagged for a closer look

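The line effect differed between the library sets for 3984 of 19660 genes by the interaction test of edgeR. It was largest in size, among the named genes, for KRT14, with an interaction of 15.97 on the log2 scale: SKOV3 had 82.7 and 97.3 CPM in the first set and 0.0435 in the second, and OVCAR-3 0, 0 and 0.149. Of the genes past 4-fold between the lines, 906 (20.7%) differed between the sets, and for 108 of them the sets gave opposite directions. Ceruloplasmin (CP), chosen after its values were seen, was at 187, 207 and 3.79 CPM in SKOV3 and at 404, 445 and 783 in OVCAR-3. The cause was not tested.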

How the results depend on the processing

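The 10738 calls became 10775 with RLE size factors, 11484 with DESeq2, 11338 with voom, 10577 without the count filter, 9577 without the set term, 10962 with all 9 libraries and 12520 with replicates 1 and 2 alone. Tested against a fold of 2, 5182 remained past the threshold, 2696 higher and 2486 lower in OVCAR-3. Leaving out a replicate number or a library gave 5577 to 12884 calls, 2674 to 6704 higher and 2903 to 6381 lower, and 1527 to 2779 past 4-fold higher and 1310 to 2295 lower; the lowest came without replicate 1 of both lines, and without replicate 2 there were 5750. With GSK-J4, leaving out a library gave 4870 to 12963 calls (2537 to 6593 higher, 2333 to 6630 lower), the lowest without OVCAR-3 replicate 1. The set interaction called 2695 genes with DESeq2 and 2958 to 5521 without a library of the first set. Same-numbered libraries of the lines did not deviate together (correlations 0.0139, 0.0424 and 0.0143), which cannot show whether they were handled together. With the replicate block 9004 genes were called, and 6024 with GSK-J4. No named gene reversed in any alternative run: of 172, 23 lost the call against a fold of 2, 25 and 23 without replicates 1 and 2, and at most 9 in any other. KDM6A, EZH2 and ARID1A were among those lost in these 3. Of the list medians, that of glycolysis and hypoxia genes changed sign, from 0.13 to -0.16 with replicates 1 and 2 alone. With 3 libraries a line, a gene without a call may still differ, and line, medium and culture cannot be told apart.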

Other observations

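Within SKOV3, the second library set was set against the first by windows of 15 neighbouring coding genes, as a description of single libraries. The lowest window for GSK-J5 lay on chromosome 17 from 40388516 to 41823217, the keratin cluster with KRT14, KRT15 and KRT19 (median log2 difference of replicate 3 against replicates 1 and 2 -1.29 with GSK-J5 and -0.83 with GSK-J4), followed by the S100 cluster on chromosome 1 from 151759643 to 153631360 (-0.92 and -0.85). In OVCAR-3 the same windows had medians of 0.58 and 0.09. The lowest window that held ERBB2 had -0.51 with GSK-J5 and -0.59 with GSK-J4, against medians over all windows of 0.02 and 0.01. Haem oxygenase HMOX1, chosen after its values were seen, was the reverse: 49.4, 47.2 and 599 CPM in SKOV3 and 3.42, 2.5 and 4.03 in OVCAR-3.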
